A study of Mus musculus with 21 samples.

Results

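Transcripts of 4 growth factors that bind the EGF receptor, epiregulin (Ereg), amphiregulin (Areg), heparin-binding EGF-like growth factor (Hbegf) and transforming growth factor alpha (Tgfa), were followed in mouse macrophages exposed to a soluble form of the mannose receptor. They were found by gene identifier in the deposited table of estimated counts, and are 4 of its 23250 genes. The group was chosen by the measured rise of Ereg with the soluble receptor. The values of Ereg are therefore described here without a test. Areg, Hbegf and Tgfa were taken in as members of the same ligand family, though earlier results of these data were known at that choice. Ereg, Areg and Hbegf passed the filter on low counts, which kept 13468 genes, and Tgfa did not.

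The cells were bone-marrow-derived macrophages of the C57BL/6J background, grown for 7 days with supernatant of a cell line that makes GM-CSF, a cytokine under which marrow precursors become macrophage-like and dendritic-like cells. Per the series' design text the cells lacked the mannose receptor, a lectin of the macrophage surface encoded by Mrc1, and this deficiency is shared by every group, controls included. The study asked what soluble mannose receptor does to macrophages. The 7 groups held 3 libraries each, 21 in all. They were untreated cells at 0 h, cells given FcMR for 4, 12 or 24 h, and cells given an isotype control for 4, 12 or 24 h. FcMR is a recombinant protein that joins the extracellular region of the receptor to the Fc part of human IgG1. The labels do not describe the isotype control further, nor do they say whether the libraries of a group came from separate mice. P-values therefore measure the spread between these libraries, which may be technical. There is no untreated group at 4, 12 or 24 h, so effects of culture time and of the control protein cannot be told apart where isotype is compared with untreated cells.

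All 4 ligands are made as precursors that span the membrane. A protease, often ADAM17, cuts off the part outside the cell, which folds around a small EGF-like domain held by disulfide bonds and binds the EGF receptor on the same or on neighbouring cells. Epiregulin and heparin-binding EGF-like growth factor can also engage ErbB4, and amphiregulin and transforming growth factor alpha bind the EGF receptor itself. Macrophages are a known source of several of these ligands in inflamed and healing tissue, where the responding cells are often epithelial cells and fibroblasts.

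The EGF-like domain is what makes these transcripts a family, so its coding stretch is shown for 3 of them. A search of the translated coding sequences for 6 cysteines with the family's spacing found 1 match of 36 residues in each of the 4 proteins. The 108 bases that encode it, read 5′ to 3′ from the coding strand of GENCODE M21 transcripts (build GRCm38), have the cysteine codons in capitals.
Ereg: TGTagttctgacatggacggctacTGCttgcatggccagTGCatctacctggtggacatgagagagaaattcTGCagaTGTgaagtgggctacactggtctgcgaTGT
Areg: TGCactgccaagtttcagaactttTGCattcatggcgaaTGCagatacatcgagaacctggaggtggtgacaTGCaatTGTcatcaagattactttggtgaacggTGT
Tgfa: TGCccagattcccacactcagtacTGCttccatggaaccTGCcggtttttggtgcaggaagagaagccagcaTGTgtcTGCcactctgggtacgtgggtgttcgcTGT
The 6 capital codons stand at the same places in the 3 stretches. Between pairs of the 4 proteins, 33.3% to 44.4% of the 36 residues were identical, lowest between Ereg and Areg.

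No run of 31 bases was shared between any of the 4 genes' transcripts. A run of that length is the usual word size of the counting program named in the submitters' processing notes. Areg and Hbegf shared no such run with any other annotated gene, whereas 2.95% of the runs of Ereg and 1.37% of those of Tgfa also occurred elsewhere. For Ereg these include the start of the gene, which overlaps the antisense gene Gm19610, and for Tgfa they belong to Gm43917. The library kit is not stated to mark strand, so reads from such overlaps cannot be told apart.

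Ereg and Areg are neighbours. In GRCm38, Ereg lies on the plus strand at chr5:91074622-91093646 and Areg on the plus strand at chr5:91139599-91148432. The gap between them is 46.0 kb, and Epgn, another ligand gene of the family, lies 39.4 kb before Ereg. Btc, which encodes betacellulin, begins 208.8 kb after Areg. Tgfa is at chr6:86195223-86275719 on the plus strand.

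RefSeq promoter sequences (build GRCm38.p6) were matched for 2 of the 4 members. That of Areg is shown because Areg differed between FcMR and isotype at every time measured, as given further on. The 140 bases before its start, chr5:91139459-91139598 on the plus strand, carry in capitals the motifs found by a search of both strands.
Areg promoter: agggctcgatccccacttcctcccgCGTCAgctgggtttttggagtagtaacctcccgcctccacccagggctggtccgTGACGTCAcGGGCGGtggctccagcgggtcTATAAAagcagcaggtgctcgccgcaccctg
The palindrome TGACGTCA, known as the cyclic AMP response element, begins at base -61 and is present in 1.79% of 32851 promoter windows of 300 bases. Its shorter form TGACG, which lies inside the palindrome on both strands, is found once more on the minus strand at base -115, and 20.8% of windows hold it. TATAAA begins at base -31 (13.6% of windows) and GGGCGG at base -52, with another match after the start (35.7%). The AP-1 motif TGANTCA, found in 7.81% of windows, and the NF-kB motif, found in 0.411%, have no match in the window of Areg. These are matches of letters only.

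Library totals ran from 5532225 to 66729533 counts. Levels are given in CPM, which removes differences in library depth, here with TMM factors. The level of 3 counts, used here as the floor of detection, ran from 0.0454 to 0.559 CPM. Floors and intervals named as counting intervals cover counting error only. By the running numbers in the sample titles, replicate 1 of FcMR at 12 h sits among the isotype 4 h libraries and replicate 3 of isotype at 4 h among the FcMR 12 h ones. Differences of the members between FcMR and isotype at 4 h and 12 h are given with and without both, and without them no call of Areg or Hbegf against untreated cells was gained or lost at these times. Mrc1 had 0 to 11 counts per library. All 8 macrophage markers were detected in every library, with Lyz2, the lysozyme gene, at 16643 CPM or more, and dendritic cell markers were present as well (Itgax at 853 to 1233 CPM). Of the 7 T cell and innate lymphoid genes, Cd3e, Cd3d, Trac and Foxp3 had at most 10 counts in any library, Gata3 at most 30 and Cd4 at most 82, whereas Il7r was at 230 to 510 CPM. In bulk RNA, fewer cells of a type and less RNA per cell cannot be told apart.

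Ereg was low in untreated macrophages, stood higher in both arms at 4 h, and was higher with FcMR than with isotype at 4, 12 and 24 h. In the 3 untreated libraries its level was 1.75, 1.15 and 1.39 CPM. At 4 h it was 32.8, 32.1 and 25.2 CPM with FcMR and 10.1, 11.2 and 6.95 CPM with isotype. All 6 libraries lay above the untreated ones, and the lowest FcMR library stood above the highest isotype library.

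At 12 h the levels of Ereg were 8.73, 6.72 and 7.63 CPM with FcMR and 0.337, 0.44 and 0.379 CPM with isotype. The isotype libraries lay below the untreated ones, and the FcMR libraries lay above them. At 24 h Ereg stood at 2.06, 3.12 and 1.95 CPM with FcMR, against 3, 0 and 2 counts in the isotype libraries, at or under the floor. The groups did not overlap at any time.

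**Figure D1:**
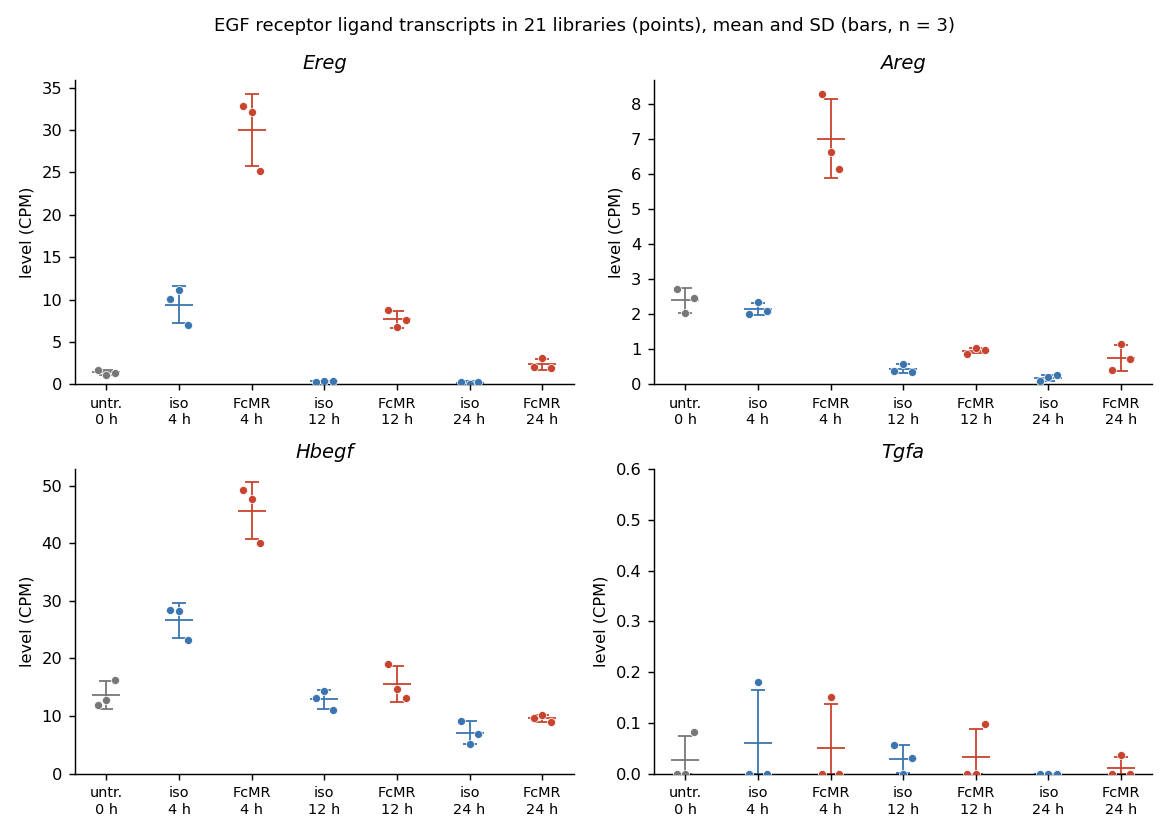
Level of each ligand transcript (vertical axis, CPM, a separate scale per panel) in the 21 libraries by group (horizontal axis). Points are libraries, bars the mean and SD of 3 libraries with the lower end stopped at 0. Ereg, Areg and Hbegf are highest in the FcMR 4 h libraries, and no Tgfa library exceeds 0.180 CPM.

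Since Ereg was chosen by its rise, the SEs and intervals given for it are descriptions and no test of that rise. The FcMR difference of Ereg, fitted by edgeR, was 1.69 (SE 0.238) on the log2 scale at 4 h, a fold of 3.23. It was 4.33 (SE 0.311) at 12 h, a fold of 20.1. At 24 h the fitted value of 3.70 (SE 0.444) rests on 5 isotype counts in all and depends on the prior count of the fit. The ratio of summed counts, scaled by library size, was 14.6 there, with a 95% counting interval of 6.10 to 45.9, and the order of the 12 h and 24 h values is not resolved. Without these 2 libraries out of title order, the log2 difference was 1.51 at 4 h and 4.23 at 12 h.

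Relative to untreated cells, Ereg stood 6.66-fold higher with isotype at 4 h (log2 difference 2.73, SE 0.278). By 12 h the isotype value was 3.66-fold under the untreated one (log2 difference -1.87, SE 0.343). The corresponding values with FcMR were 21.5-fold higher at 4 h and 5.5-fold higher at 12 h. At 24 h, FcMR libraries were still 1.77-fold above untreated ones, with all 3 above the highest untreated library. The 3 untreated libraries enter both sets of comparisons.

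Areg, an EGF receptor ligand that many immune cells also make, was higher with FcMR than with isotype at each time, but it followed a different course against untreated cells. Untreated libraries held 2.72, 2.02 and 2.45 CPM. At 4 h the FcMR libraries held 8.29, 6.62 and 6.15 CPM and the isotype libraries 2.01, 2.35 and 2.09 CPM. The isotype libraries thus lay within or next to the untreated range, and every FcMR library lay above it.

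At 12 h Areg was at 0.881, 1.05 and 0.971 CPM with FcMR and at 0.393, 0.587 and 0.363 CPM with isotype. At 24 h the values were 0.411, 1.14 and 0.731 CPM with FcMR, and 1, 2 and 2 counts with isotype. All 12 libraries of these later times were below the lowest untreated library, and FcMR and isotype groups did not overlap.

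The FcMR difference of Areg was called at all 3 times by edgeR's quasi-likelihood test with Benjamini-Hochberg adjustment over all 13468 genes. It was 1.72 (SE 0.271, adjusted p = 0.000231) at 4 h, 1.22 (SE 0.316, adjusted p = 0.0113) at 12 h and 2.10 (SE 0.420, adjusted p = 0.00125) at 24 h on the log2 scale. The folds were 3.29, 2.33 and 4.30, and FcMR libraries were above every isotype library in each. At 24 h the ratio of summed counts was 4.96, with a 95% counting interval of 1.96 to 16.1. Without the 2 libraries out of title order the difference was 1.70 at 4 h (edgeR adjusted p = 0.00120) and 1.29 at 12 h (adjusted p = 0.0211).

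Single libraries carried 2 of these calls. Without isotype 12 h replicate 3, by far the deepest library, the 12 h difference was 1.05 (edgeR adjusted p = 0.0976). Without FcMR 24 h replicate 2, the highest of its group, the 24 h difference was 1.57 (edgeR adjusted p = 0.144). The 4 h call held without each library in turn, with adjusted p of at most 0.00208.

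Against untreated cells, Areg with isotype did not differ detectably at 4 h (log2 difference -0.15, SE 0.278, edgeR adjusted p = 0.758). It fell by 2.52 at 12 h (adjusted p = 2.8e-06) and by 3.63 at 24 h (adjusted p = 5.66e-07). With FcMR it rose by 1.56 at 4 h (adjusted p = 6.76e-05) and then fell by 1.30 at 12 h (adjusted p = 0.000861) and by 1.53 at 24 h (adjusted p = 0.000237). Summed markers of some other cells were also lower than in untreated libraries, and those of others were not. Neutrophil markers went from 1317 to 1541 CPM untreated to 289 to 374 CPM with isotype and 310 to 532 CPM with FcMR at 12 h, and to 173 to 202 CPM and 203 to 224 CPM at 24 h. Mast cell and basophil markers were at 55.4 to 57.1 CPM untreated and 18.4 to 30.7 CPM at 12 h and 24 h, and epithelial markers at 59.7 to 79.3 CPM untreated and 6.43 to 21.9 CPM at those times. Dendritic cell markers went the other way, from 1332 to 1467 CPM untreated to 1695 to 1751 CPM with isotype at 12 h. With FcMR at 12 h they were at 1619 to 1848 CPM. At 24 h they were at 1378 to 1518 CPM with isotype, overlapping untreated libraries, and 1557 to 1648 CPM with FcMR. The T cell and innate lymphoid list was at 285 to 382 CPM untreated and 393 to 404 CPM with isotype at 12 h. At 24 h it was at 444 to 461 CPM with isotype. With FcMR it was at 343 to 454 CPM at 12 h and 232 to 376 CPM at 24 h, both overlapping untreated. Macrophage markers were at 24387 to 25582 CPM untreated. At 12 h they were at 23439 to 25617 CPM with isotype and 20411 to 24104 CPM with FcMR. At 24 h they were at 31625 to 35843 CPM with isotype and 25834 to 27760 CPM with FcMR. The part of these shifts in the fall of Areg was not tested. Ereg with FcMR stood above its untreated level at 12 h while Areg stood below its own.

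**Figure D2:**
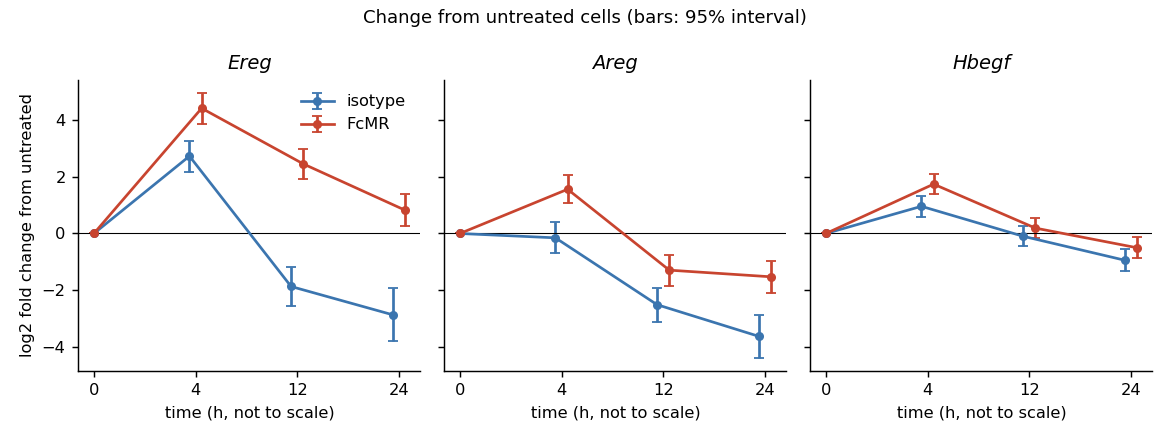
Log2 fold change from untreated cells (vertical axis) at 0, 4, 12 and 24 h (horizontal axis, not to scale) for Ereg, Areg and Hbegf, with isotype in blue and FcMR in red. Bars are 95% intervals of the edgeR fit, those of Ereg being no test, and the point at 0 h is untreated cells by definition. The FcMR line lies above the isotype line in each panel, with gaps from 0.29 for Hbegf at 12 h to 4.33 for Ereg at 12 h.

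Hbegf, whose product also binds heparan sulfate and serves as the diphtheria toxin receptor in some species, is at chr18:36504927-36515805 on the minus strand (GRCm38). Per kilobase of transcript it was the most abundant of the 4 in every group. It rose in both arms at 4 h and was higher with FcMR than with isotype at that time. Untreated libraries held 11.9, 12.8 and 16.3 CPM. The 4 h levels were 49.2, 47.7 and 40.1 CPM with FcMR and 28.4, 28.3 and 23.2 CPM with isotype. The untreated, isotype and FcMR ranges at 4 h were all separate.

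At 12 h Hbegf was back near its untreated level in both arms, at 19.1, 14.8 and 13.1 CPM with FcMR and 13.2, 14.4 and 11.1 CPM with isotype. At 24 h it was at 9.66, 10.2 and 8.90 CPM with FcMR and 9.12, 5.15 and 6.95 CPM with isotype. The 2 groups overlapped at both of these times.

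For Hbegf the FcMR difference was 0.78 at 4 h (SE 0.180, edgeR adjusted p = 0.00498), a fold of 1.72. It was 0.69 (adjusted p = 0.00833) without the libraries out of title order. The differences of 0.29 at 12 h (95% interval of the fit -0.07 to 0.65, edgeR adjusted p = 0.356) and 0.44 at 24 h (0.06 to 0.83, adjusted p = 0.132) were not called. At 12 h the difference was 0.13 (edgeR adjusted p = 0.765) without the libraries out of title order. Without isotype 24 h replicate 1 the 24 h difference was 0.69 and was called (adjusted p = 0.0329).

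Hbegf with isotype was 1.95-fold above untreated cells at 4 h (log2 difference 0.96, edgeR adjusted p = 0.000494), not called at 12 h (-0.10, adjusted p = 0.714) and 1.92-fold below at 24 h (-0.94, adjusted p = 0.000717). With FcMR it was 3.35-fold above at 4 h (1.75, adjusted p = 3.32e-07), not called at 12 h (0.19, adjusted p = 0.413) and slightly lower at 24 h (-0.50, adjusted p = 0.0318). The last call was lost without untreated replicate 3 (-0.36, edgeR adjusted p = 0.158) and without any 1 of the 3 FcMR 24 h libraries. It was also lost with no filter on low counts (edgeR adjusted p = 0.0767) and in a fit of only the libraries compared (adjusted p = 0.0594).

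Tgfa, the ligand best known from epithelia, was hardly detected. It had 0 counts in 14 of the 21 libraries and at most 4 in any other, the highest level being 0.180 CPM. A count of 0 allows levels up to the floor of 0.0454 to 0.559 CPM, depending on the library. No comparison was made for it.

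Areg and Hbegf were thus the members with a test. At 4 h both were called higher with FcMR than with isotype, where 8.62% of all genes tested were, and neither was called lower, where 9.13% were. One of the pair, Areg, was called higher at 12 h and at 24 h, against 8.61% and 11.4% of all genes, and neither was called lower, against 7.49% and 9.44%. The FcMR difference did not change detectably over the 3 times for Areg (edgeR joint test, adjusted p = 0.602) or Hbegf (adjusted p = 0.406), a test that called 11% of all genes.

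Calls against untreated cells were common over all genes. With isotype, 1 of the pair was called at 4 h, 1 at 12 h and 2 at 24 h, where 35.6%, 41.6% and 42.2% of all genes were called in either direction. With FcMR, 2 were called at 4 h, 1 at 12 h and 2 at 24 h, where 48.2%, 48.1% and 51.4% of all genes were.

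**Figure D3:**
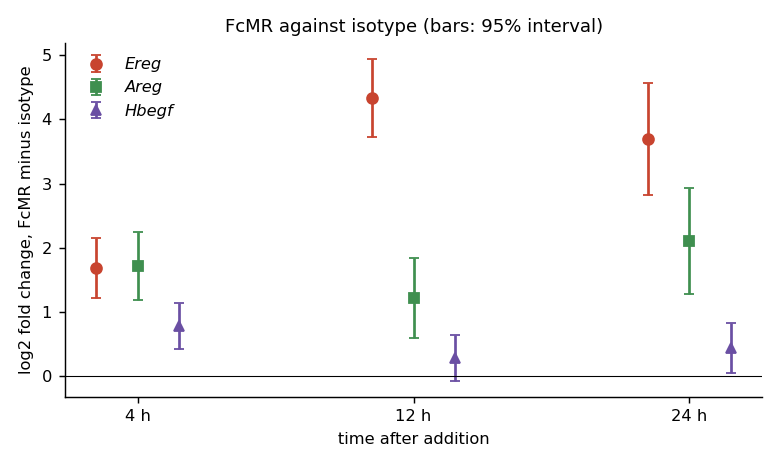
Difference between FcMR and isotype (vertical axis, log2 fold change of the edgeR fit) at 4, 12 and 24 h for Ereg, Areg and Hbegf. Bars are 95% intervals of the fit, with 3 libraries a group. Those of Ereg are no test, because it was chosen by its rise. At 4 h Ereg (1.69) and Areg (1.72) lie together above Hbegf (0.78), and at 12 h Ereg (4.33) stands above Areg (1.22) and Hbegf (0.29); the differences between genes were not tested.

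Markers of macrophages and of 7 other kinds of cells were summed per library beside these differences. At 4 h, FcMR and isotype libraries overlapped in all but 1 of the 8 lists. Dendritic cell markers, mostly Itgax and Ccr7, were higher with FcMR, at 1635 to 1803 CPM against 1435 to 1508 CPM. At 12 h 2 lists did not overlap. Epithelial markers, mostly Cdh1, were lower with FcMR (6.81 to 8.26 against 14.7 to 16.9 CPM), and fibroblast and stromal markers were higher (1.85 to 2.57 against 1.12 to 1.64 CPM).

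At 24 h 7 of the 8 lists did not overlap. Sums were higher with FcMR for dendritic cell markers (1557 to 1648 against 1378 to 1518 CPM), neutrophil markers (203 to 224 against 173 to 202 CPM), mast cell and basophil markers (27.4 to 30.7 against 18.4 to 21.4 CPM) and fibroblast and stromal markers (3.08 to 4.39 against 0.644 to 1.18 CPM). They were lower for macrophage markers, mostly Lyz2 (25834 to 27760 against 31625 to 35843 CPM). Epithelial markers (6.43 to 8.66 against 15.4 to 21.9 CPM) and the T cell and innate lymphoid list, mostly Il7r (232 to 376 against 444 to 461 CPM), were lower as well. Single genes need not follow these sums. The neutrophil genes S100a9 (53.9 CPM) and Ngp (9.14 CPM) had their lowest level of all 21 libraries in FcMR 24 h replicate 3. So did Cpa3 (2.32 CPM) and Fcer1a (1 count) of the mast cell and basophil list. In the macrophage list, Adgre1 was at its highest, 1719 CPM, in FcMR 24 h replicate 2. Of the 5 fibroblast and stromal genes 2 passed the filter, and Dcn was at its highest, 3.49 CPM, in FcMR 24 h replicate 2. Krt8 was not analysed here, and Col1a2 had 3 counts or fewer in every library. The part of these shifts in the results at 4, 12 and 24 h was not tested.

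Expressed per kilobase of the longest coding transcript, which allows levels of different genes to be compared, Hbegf led in untreated cells at 5.75 ± 0.998 CPM per kb (SD, n = 3). Areg followed at 1.97 ± 0.289 and Ereg was lowest at 0.346 ± 0.0730. At 4 h with FcMR the level of Hbegf was 19.2 ± 2.07 CPM per kb, of Ereg 7.27 ± 1.02 and of Areg 5.78 ± 0.924. Ereg and Areg overlapped there, so that their order is not resolved. At 12 h with FcMR, Ereg at 1.86 ± 0.244 was above Areg at 0.796 ± 0.0688, whereas with isotype Areg at 0.368 ± 0.0999 was above Ereg at 0.0933 ± 0.0126. At 24 h with FcMR, Ereg (0.576 ± 0.157) and Areg (0.626 ± 0.3) did not differ beyond their spread. Taking all exons of Hbegf as its length lowers its FcMR 4 h level to 9.45 CPM per kb, still the highest.

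Across all 21 libraries the 3 detected members varied partly together. On log2 CPM, Pearson's r was 0.867 between Ereg and Hbegf, 0.827 between Ereg and Areg and 0.857 between Areg and Hbegf. These are descriptions over points that share 7 groups and differ in depth. Among 10605 other genes of at least moderate level, those most like Ereg were Pvr (r = 0.971), which encodes the poliovirus receptor homologue CD155, Denr (0.970), a translation factor, and Malt1 (0.968), a protease of NF-kB signalling. At 4 h Pvr stood at 151 ± 8.16 CPM in FcMR and 82.8 ± 7.62 CPM in isotype libraries, and at 86.6 ± 1.95 against 34.3 ± 1.29 CPM at 12 h. Pvr was picked for its likeness to Ereg over these libraries, so its levels are no separate observation.

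The genes most like Areg were Pnrc1 (0.967), a nuclear receptor coregulator, Ets2 (0.965), a transcription factor, and Rab11fip1 (0.957), a factor of vesicle recycling. Those most like Hbegf were Tnfsf15 (0.971), a cytokine of the TNF family, Cd69 (0.962), an early activation antigen, and Nipal1 (0.960), a magnesium transporter. Tnfsf15 reached 1109 ± 68.7 CPM with FcMR at 4 h against 196 ± 25.8 CPM with isotype. It too was picked for its likeness, here to Hbegf. When ranked by Spearman's rho, 1 of the 3 genes named for each member remained among its top 3.

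The receptors of these ligands had low counts. Egfr, the receptor of all 4, had a level of 1.91 ± 0.19 CPM (SD over 3 libraries) before treatment. With FcMR it was at 3.61 ± 0.223 CPM at 4 h, 5.32 ± 0.3 at 12 h and 4.92 ± 1.17 at 24 h, against 2.28 ± 0.463, 3.27 ± 0.295 and 2.83 ± 0.898 with isotype. Its FcMR difference was 0.66 at 4 h (edgeR adjusted p = 0.0554), 0.69 at 12 h (adjusted p = 0.0251) and 0.81 at 24 h (adjusted p = 0.0103), and the groups did not overlap.

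The Egfr calls are weak. The 12 h call was lost without any 1 of the 3 isotype libraries, FcMR replicate 1 or FcMR replicate 3 (edgeR adjusted p up to 0.0900), with no filter on low counts (adjusted p = 0.0551), and without both libraries out of title order (adjusted p = 0.0649). The 24 h call was lost without FcMR replicate 2, isotype replicate 1 or isotype replicate 3 (up to 0.0959), and in a fit of only the libraries compared (adjusted p = 0.115). Erbb3, a receptor of neuregulins, was at 1.64 to 3.29 CPM in every group mean and was not called. Erbb2, the shared partner receptor, had 0 to 36 counts and was not tested, and Erbb4 was not analysed here.

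Of 7 other ligands of the family, 6 were in the table and 3 passed the filter. The neuregulins Nrg1 and Nrg4, ligands of ErbB3 or ErbB4, were higher with FcMR at different times. At 4 h Nrg1 held 13.8 ± 0.27 CPM in FcMR libraries and 8.76 ± 0.28 CPM in isotype libraries (log2 difference 0.65, edgeR adjusted p = 0.000957). Nrg4 was at 7.97 ± 1.42 CPM against 3.29 ± 0.633 CPM at 24 h (1.28, adjusted p = 0.000958). Egf itself was at or below 2.21 CPM in every library and was not called, and 1 of the 3 tested was called higher at each time, where 8.62%, 8.61% and 11.4% of all genes were, and none lower. The 12 h call was kept in 8 of 15 alternatives. The median log2 difference of the list was -0.20, 0.03 and 0.12 at 4, 12 and 24 h, beside -0.07, -0.02 and 0.01 over all genes.

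Among 13 tested genes of ligand shedding and transport, 2 were called lower at 4 h, 2 lower at 12 h, and 3 higher with 2 lower at 24 h. Over all genes tested, 9.13% were called lower at 4 h, 7.49% lower at 12 h, and 11.4% higher and 9.44% lower at 24 h. Adam17, the main sheddase of these ligands, at 4 h held 557 ± 18.2 CPM in FcMR and 529 ± 8.9 CPM in isotype libraries and was not called. At 24 h it was at 364 ± 9.61 against 260 ± 14.2 CPM, a log2 difference of 0.49 (edgeR adjusted p = 1.48e-05). Adam12, another metalloprotease, was higher at 24 h (1.36, adjusted p = 0.0037), and so was Adam19 (0.50, adjusted p = 0.00675). The Adam19 call was lost in a fit of only the libraries compared (edgeR adjusted p = 0.0590).

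Cd9, a tetraspanin that associates with the Hbegf precursor, was lower with FcMR than with isotype. The log2 difference was -0.55 at 12 h (edgeR adjusted p = 1.05e-05) and -0.90 at 24 h (adjusted p = 2.15e-08). Adam8, a metalloprotease of myeloid cells, was lower with FcMR by 0.97 at 12 h (edgeR adjusted p = 0.000534) and by 0.83 at 24 h (adjusted p = 0.00159). The list's median difference was 0.01, -0.05 and -0.12 at the 3 times, beside -0.07, -0.02 and 0.01 over all genes. Both 4 h calls, those of Adam10 and Adam12, were lost under several alternatives.

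The 16 adaptor and signalling genes gave 2 calls upward and 1 downward at 4 h, 1 in each direction at 12 h, and 1 upward at 24 h. The shares over all genes were 8.62% upward and 9.13% downward at 4 h, 8.61% and 7.49% at 12 h, and 11.4% upward at 24 h. The downward calls are weak, being kept in 2 of 15 alternatives at 4 h and 8 of 15 at 12 h. Map2k1, which encodes the kinase MEK1, was called higher at each time, by 0.70 (edgeR adjusted p = 1.78e-05), 0.50 (adjusted p = 0.000343) and 0.39 (adjusted p = 0.00294). The list medians were 0.04, -0.07 and -0.01, and those of all genes -0.07, -0.02 and 0.01.

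Of 14 tested negative regulators, 3 were called higher at 4 h, 2 at 12 h, and 2 higher with 2 lower at 24 h. Of all genes tested, 8.62% were called higher at 4 h, 8.61% at 12 h and 11.4% at 24 h, and 9.44% lower at 24 h. Spry1, a Sprouty inhibitor of receptor signalling, at 4 h held 4.20 ± 1.45 CPM in FcMR and 1.0 ± 0.276 CPM in isotype libraries (2.05, edgeR adjusted p = 0.00202). Errfi1, whose product binds and inhibits the EGF receptor kinase, was higher at 4 h (0.54, adjusted p = 0.00726), a call lost in a fit of only the libraries compared (adjusted p = 0.0833). Lrig1, a membrane protein that promotes receptor degradation, was higher by 1.47 at 12 h (edgeR adjusted p = 0.00466). At 24 h it was higher by 1.88 (edgeR adjusted p = 0.000977). Its level was low, with 1 to 84 counts per library and at most 3.58 CPM.

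Spred1, an inhibitor of the Ras pathway, was higher by 0.96 at 12 h (edgeR adjusted p = 0.000179). Spry2, another Sprouty gene, was lower with FcMR than with isotype by 1.13 at 24 h (edgeR adjusted p = 0.00253). The list medians were 0.06, 0.00 and 0.05, against the same -0.07, -0.02 and 0.01 over all genes. Over the 5 lists 29 calls were made between FcMR and isotype, of which 16 held under every alternative run and 13 were lost under 1 or more, and none reversed. Without both libraries out of title order, the calls at 4 h and 12 h given here by gene were kept except those of Egfr at 12 h and Adam12 at 4 h.

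**Figure D4:**
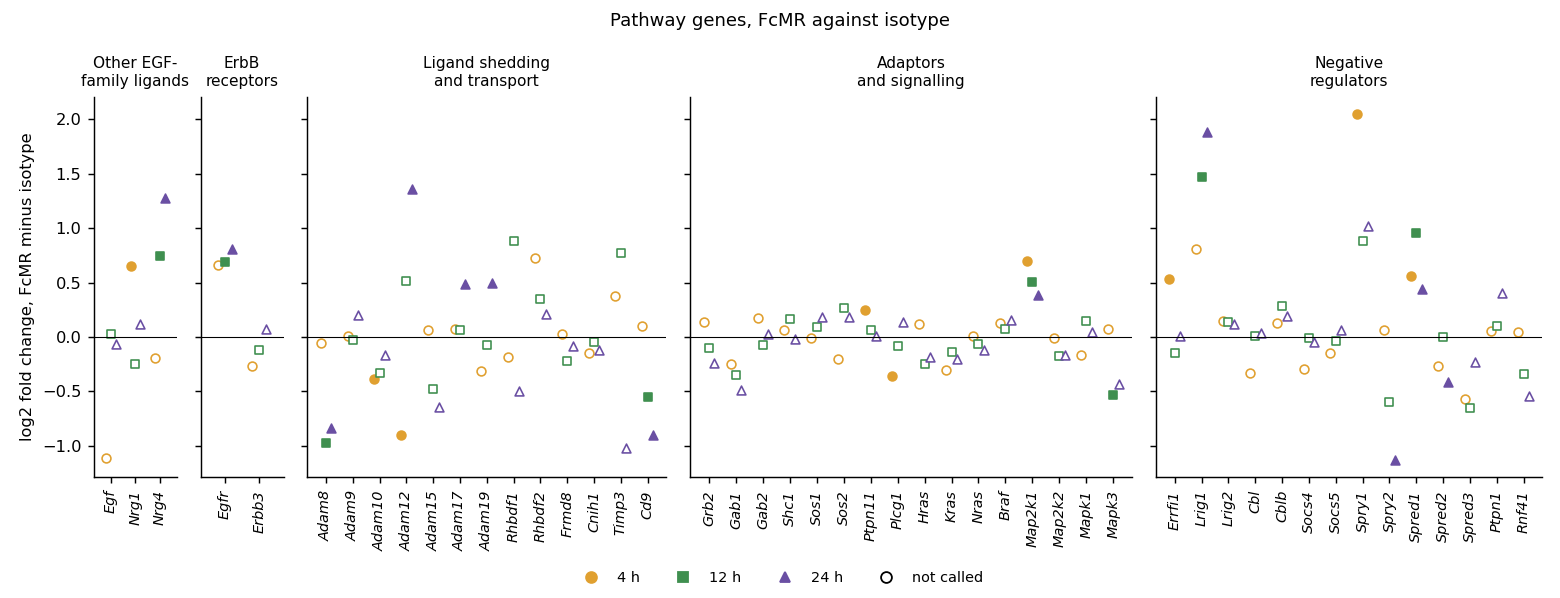
Log2 fold change between FcMR and isotype (vertical axis) for each tested pathway gene (horizontal axis, by list) at 4 h (circles), 12 h (squares) and 24 h (triangles). Filled symbols are called at an edgeR adjusted p under 0.05. Spry1 at 4 h (2.05) and Lrig1 at 24 h (1.88) are the highest, and Spry2 at 24 h (-1.13) the lowest.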

How the data were processed

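RNA was sequenced as 75-base single-end reads from TruSeq libraries, per the labels' protocols. CASAVA 1.8.2, kallisto 0.44.0 and DESeq2, with builds mm10 and GRCm38, are named in the submitters' processing notes, without their roles. The authors deposited estimated counts per gene as whole numbers, and a normalized table on a linear signal scale, which was read only to check levels (Ereg at 4 h had a deposited normalized signal of 376 with FcMR and 113 with isotype, the mean of 3 libraries each). Every gene in the deposited count table sums to at least 10 counts. The plan assumed plain counts, and its test was kept for estimated counts. Symbols and positions come from GENCODE M21, matched without version for 23206 of 23250 identifiers.

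Counts were scaled by TMM and fitted in 1 model over 21 libraries and 7 group coefficients (edgeR 4.0.16, R 4.3.3, quasi-likelihood test). The filter was filterByExpr at a minimum of 10 counts, and genes were called at a Benjamini-Hochberg adjusted p under 0.05. Log2 CPM used a prior count of 2. The procedure was tested on simulated counts. The members and gene lists were chosen with earlier results of these data known. Besides the members, pathway genes were named only if called in at least 1 comparison of FcMR with isotype, receptors always, and for each member the 3 most correlated genes. One gene of the signalling list is not reported here. Egf, which was not called, is named beside this rule. Alternatives were RLE factors, other filters, DESeq2 1.42.0, limma-voom (limma 3.58.1), a replicate block, GC correction, subsets of libraries, and each library left out in turn.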

Additional observations from a re-analysis of the deposited data

Results flagged for a closer look

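The difference between FcMR and isotype changed over 4, 12 and 24 h for 8 pathway genes, by the joint edgeR test adjusted over all genes, which called 11% of them. Cd9 went from 0.10 at 4 h to -0.55 and -0.90 (log2 differences at 4, 12 and 24 h; adjusted p = 5.96e-06). Adam17 was at 0.07, 0.07 and 0.49 (adjusted p = 0.00483). Nrg1 was at 0.65, -0.25 and 0.12 (adjusted p = 0.00519), and Nrg4 at -0.20, 0.74 and 1.28 (adjusted p = 0.0233). Adam12 was at -0.90, 0.51 and 1.36 (adjusted p = 0.00602), and Adam19 at -0.31, -0.07 and 0.50 (adjusted p = 0.0122). Adam8 was at -0.06, -0.97 and -0.83 (adjusted p = 0.0319), and Errfi1 at 0.54, -0.15 and 0.01 (adjusted p = 0.0439). In a fit of only the libraries compared, the single-time calls of Adam19 at 24 h (edgeR adjusted p = 0.0590) and Errfi1 at 4 h (adjusted p = 0.0833) were lost.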

How the results depend on the processing

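Under the alternatives, all 135 values of Ereg, which has no test and was chosen by its rise, kept their direction. Of 269 tested differences of Areg and Hbegf, 258 kept direction and side of the threshold, 8 lost a call, 1 gained one and 2 changed sign, and all 54 values of their joint test over time remained uncalled. The sign changes were those of Hbegf between isotype and untreated cells at 12 h, uncalled throughout, which was 0.051 without untreated replicate 3 and 0.030 without isotype 12 h replicate 3 (range -0.18 to 0.051 with each library left out). With each library left out in turn, Areg between FcMR and isotype ran from 1.05 to 1.34 at 12 h and from 1.57 to 2.37 at 24 h, and Hbegf from 0.26 to 0.69 at 24 h, the ends given with their libraries above. Areg at 24 h has no value in the fit of only the libraries compared, where the filter dropped it. Counts of all genes called between FcMR and isotype moved more. At 4 h the count was 2390, against 3832 with GC correction, 3898 without both libraries out of title order, 868 with only the libraries compared, and 1589 to 3151 with single libraries left out (1589 without FcMR 4 h replicate 2). At 12 h it was 2169, against 3529 with GC correction. Between isotype and untreated cells at 4 h it was 4792, against 2881 with only the libraries compared. The joint test over time called 1484 genes, against 925 without a filter, 3102 with GC correction, 2616 without both libraries out of title order and 973 to 2294 with single libraries left out (973 without FcMR 4 h replicate 2 and 2294 without isotype 4 h replicate 3). The causes were not tested.

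Replicate numbers are shared by the groups, but no label says that they mark a mouse or day. Same-numbered FcMR and isotype libraries deviated from their group means with mean correlations of -0.07, 0.11 and 0.01 at 4, 12 and 24 h, and 0, 2 and 1 of 3 correlated best with their own number, so the numbers were not taken to pair them. With the replicate block the counts of genes called were 2541, 2290 and 2911, against 2390, 2169 and 2813 without it, and the FcMR difference of Areg was 1.71, 1.20 and 2.08. Depth limits Tgfa, and Ereg and Areg with isotype at 24 h, which rest on 5 counts each.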
